A study of Homo sapiens with 21 samples.

Results

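HOX genes encode homeodomain transcription factors that give cells their position along the head-to-tail axis and along the limbs. They lie in 4 clusters, HOXA, HOXB, HOXC and HOXD, and within a cluster the order of the genes follows the order in which they are switched on from anterior to posterior. Genes that hold the same number in different clusters are paralogs. The proteins often bind DNA together with cofactors of the TALE class (PBX, MEIS and PKNOX), while Polycomb and Trithorax proteins keep the clusters silent or active once the pattern is set. In the neural crest, from which melanocytes come, anterior HOX genes mark the level of origin, and adult skin fibroblasts keep a HOX pattern that reflects their body site. The members were all protein-coding genes whose symbol is HOXA, HOXB, HOXC or HOXD followed by a number: 39 genes of 58870 in the data, with 11 in HOXA on chromosome 7, 10 in HOXB on chromosome 17, 9 in HOXC on chromosome 12 and 9 in HOXD on chromosome 2.

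The study asked how melanoma cells, and their tolerance of MAPK pathway inhibitors, respond to loss of SOX10, which specifies neural crest cells and melanocytes. Messenger RNA was sequenced in A375, a human melanoma line with a mutant BRAF gene, and in lines made from it, as 7 groups of 3 libraries. The parental group was A375 without drug. The groups gSOX10 #2 and gSOX10 #4 were A375 clones in which SOX10 had been disrupted by CRISPR/Cas9 with 1 of 2 guide RNAs, each group being 1 clone, also without drug, and no clone made with a control guide was in the data. CRT34 and CRT35 were A375 lines recovered from tumors that had grown in mice and tolerated a BRAF inhibitor given with a MEK inhibitor, and were kept on PLX4720, a BRAF inhibitor, at 1 µM and PD0325901, a MEK inhibitor, at 35 nM. Each line has a Combo group, on PLX4720 and PD0325901, and a DMSO group, off both, and how long the drugs were off is not given in the sources used here. The parental line and the clones were not sequenced with the inhibitors, so the effect of the drugs on the parental line was not measured. The paper also describes A375 cells taken from vehicle-treated xenografts, but no such group was in the data. Against parental, growth in mice and drug tolerance therefore cannot be told apart in the CRT lines.

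SOX10 was at 10348, 11877 and 12822 in the parental libraries, at 392 to 517 in the 6 libraries of the knockout clones and at 0 to 6.32 in the 12 CRT libraries, so that both clones were low as their labels say. A knocked-out gene can still be transcribed, so the remaining value in the clones does not measure the protein. Of 9 markers of the melanocyte lineage, MLANA and TYR were at 0 in the parental libraries too, and 3 to 4 of 6 tested were called lower in each group against parental and 0 to 2 higher, SOX10 and S100B among the lower ones throughout. Those called higher were TYRP1 in both CRT34 groups and CRT35 Combo and MITF in both Combo groups. TYRP1 was called lower in gSOX10 #4. Low values put the depth at 27.3 to 75.7 M reads per library, lowest in CRT35 DMSO replicate 1, and CRT34 Combo replicate 3 lay closer to CRT34 DMSO replicate 3 (r = 0.972 across genes) than to its own group. For some of the results that rest on these libraries, values without them are given too. Of 8 fibroblast markers, 8 were called higher in every CRT group against parental, 6 in gSOX10 #2 and 4 in gSOX10 #4. Their summed value was 533 to 669 in the parental libraries, 1433 to 3009 in the clones and 151342 to 529990 in the CRT libraries, where THY1 was at 24903 to 55108 after 0.929 to 14.8 in parental cells. Of 5 endothelial markers tested, 2 to 3 were called higher (PECAM1 and TEK in all) and 1 to 2 lower (KDR in all) in each CRT group. CLDN5 was at 0 in all of these groups but CRT35 Combo. Summed endothelial values were 168 to 219.6 in parental and 1943 to 7672 in CRT libraries. Of 4 keratinocyte markers tested, TP63 was called higher in all 6 groups and KRT14 lower. KRT5 was called lower in gSOX10 #4, CRT34 Combo and both CRT35 groups. Summed keratinocyte values were 1122 to 2129 in all libraries. Of 4 leukocyte markers tested, 1 to 3 were called higher, CD68 in all 6 groups. In the 6 comparisons against parental, 11.8% to 20.1% of all genes tested were called higher and 7.35% to 10.2% lower. The part that these markers have in the HOX differences of the CRT lines below was not tested. In bulk RNA, fewer cells of a type and less RNA per cell cannot be told apart.

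Values are normalized gene values, comparable between libraries but not between genes, and levels of different genes are therefore compared only per kb of annotated exon. Changes are log2 differences on the log2(value + 1) scale with their standard error (SE), which understates the change of low genes. A gene was called when its p from limma, adjusted over all 19290 genes tested, was 0.05 or lower and its fold change was at least 2. The libraries of a group are not said in the labels to come from separate cultures, so the p-values measure the spread between these samples. Of the 39 members, 36 passed the filter of a value of 10 or more in at least 3 libraries. The other members were HOXB1, at 0 in 20 of 21 libraries and at 0.872 in the remaining one, HOXD11, which reached at most 19.2, and HOXD12, which reached at most 7.93.

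In the parental line, HOX mRNA came from all 4 clusters and from anterior, central and posterior paralogs. Over the 21 libraries the highest member per kb was HOXC10, at 770.3 ± 40.7 in parental cells (mean ± SD, n = 3, here and for all levels per kb below). HOXB7, which is known to act on FGF2 in melanoma cells, was second, at 662 ± 33.7 per kb. These genes held the first and second places in every group, with their order exchanged in gSOX10 #2. HOXB4 stood at 467 ± 42.8, HOXA10 at 332 ± 18.2 and HOXD13 at 304 ± 18.1 per kb in parental cells, and the last was the highest member of its cluster. At the low end of the members tested, HOXA7 stood at 2.54 ± 1.76 and HOXD3 at 2.00 ± 0.169 per kb. Neighbors on a chromosome could differ strongly, as did HOXA9 at 12.6 ± 1.64 and HOXA10 at 332 ± 18.2 per kb. Exons overlap within the clusters: 16 members share exon bases with another gene on the same strand and 20 with a gene on the opposite strand. The labels and the study name library kits that differ in whether they keep the strand, so values of such members may include reads of their partners.

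**Figure D1:**
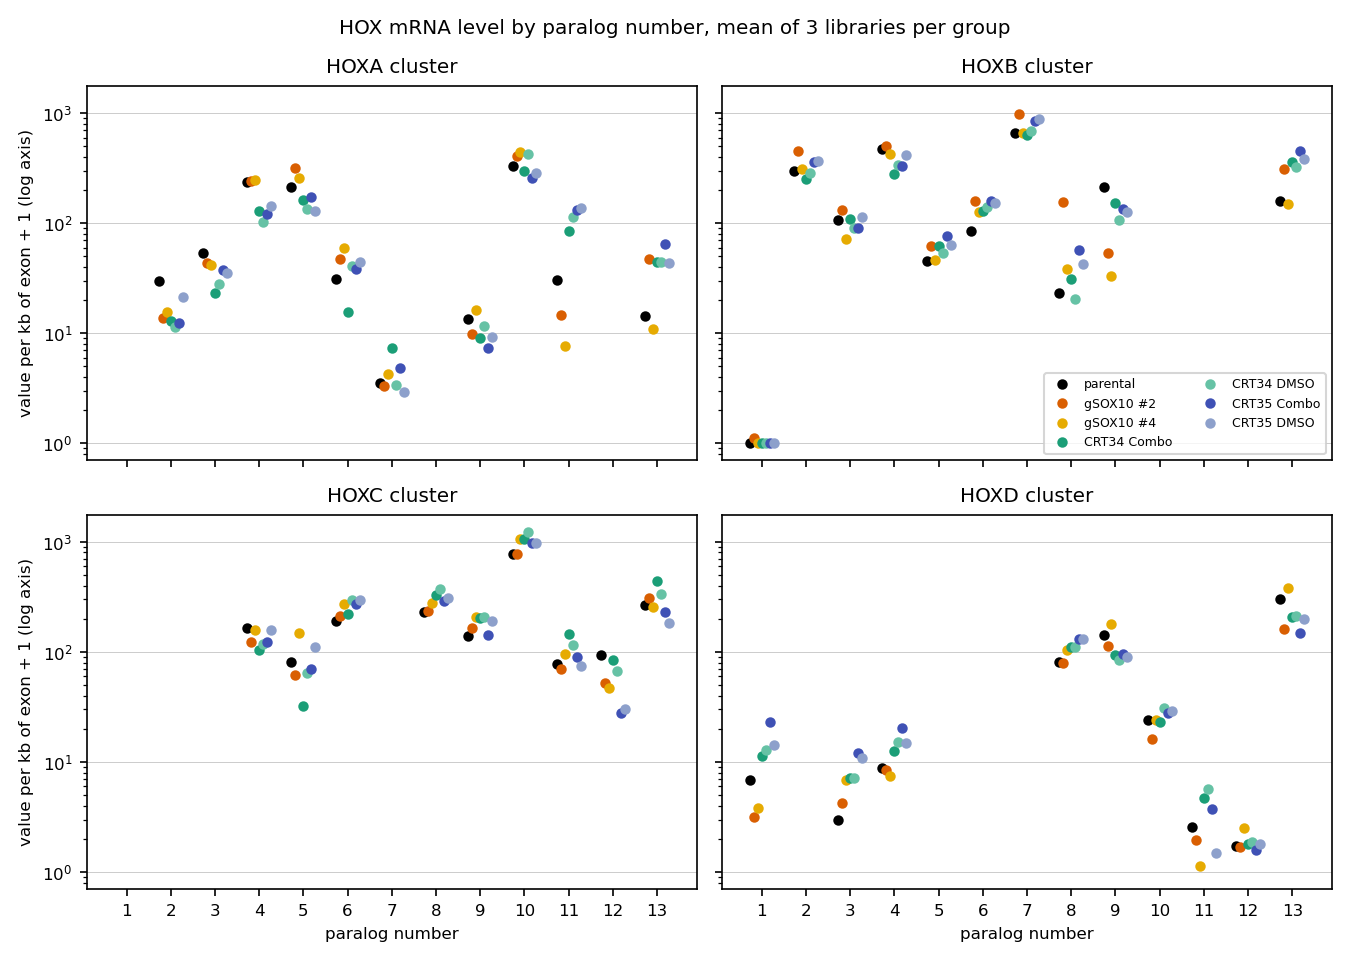
Mean value per kb of exon plus 1 (log axis, n = 3 libraries per group) of 38 HOX genes by paralog number, with 1 panel per cluster and 1 color per group. HOXC10 and HOXB7 are the highest genes in all 7 groups, HOXB1 lies at 0 in nearly all libraries, and the group means stand apart at HOXA11, HOXB8 and HOXB9.

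Sequence around the start sites was available from RefSeq for some members, as 250 bases before and 50 bases after each start on GRCh38.p14: 20 members had an entry and 18 had a single one. The promoters of HOXA2, HOXA11, HOXA13 and HOXD3 are shown because these genes were called in the most comparisons among the members that had a single one. Capitals mark matches on either strand to the CCAAT box (CCAAT, read ATTGG on the other strand), the core that SOX proteins bind (ACAAAG) and a homeodomain core (TAATTA), which do not overlap each other here. The start used for HOXA11 and HOXA13 is the end of the annotated gene on the minus strand, and that of HOXD3 lies inside its gene.
HOXA2, chr7:27102634-27102933, minus strand: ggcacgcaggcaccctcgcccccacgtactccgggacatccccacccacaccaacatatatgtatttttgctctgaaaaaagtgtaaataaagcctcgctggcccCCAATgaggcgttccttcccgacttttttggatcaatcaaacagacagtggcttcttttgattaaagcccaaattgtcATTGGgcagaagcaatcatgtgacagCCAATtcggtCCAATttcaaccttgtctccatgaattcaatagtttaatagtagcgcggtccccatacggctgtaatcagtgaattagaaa
HOXA11, chr7:27185183-27185482, minus strand: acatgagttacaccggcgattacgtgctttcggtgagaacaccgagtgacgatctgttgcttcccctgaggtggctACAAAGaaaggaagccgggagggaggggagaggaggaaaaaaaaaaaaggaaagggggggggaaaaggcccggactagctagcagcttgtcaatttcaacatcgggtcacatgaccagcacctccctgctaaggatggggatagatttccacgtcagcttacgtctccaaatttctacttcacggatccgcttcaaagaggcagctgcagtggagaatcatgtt
HOXA13, chr7:27200042-27200341, minus strand: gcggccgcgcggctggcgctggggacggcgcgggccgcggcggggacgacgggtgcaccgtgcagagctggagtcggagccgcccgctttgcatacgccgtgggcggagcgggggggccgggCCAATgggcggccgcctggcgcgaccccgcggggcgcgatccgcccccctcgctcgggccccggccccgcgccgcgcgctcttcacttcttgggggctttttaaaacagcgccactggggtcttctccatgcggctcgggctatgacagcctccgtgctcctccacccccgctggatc
HOXD3, chr2:176157057-176157356, plus strand: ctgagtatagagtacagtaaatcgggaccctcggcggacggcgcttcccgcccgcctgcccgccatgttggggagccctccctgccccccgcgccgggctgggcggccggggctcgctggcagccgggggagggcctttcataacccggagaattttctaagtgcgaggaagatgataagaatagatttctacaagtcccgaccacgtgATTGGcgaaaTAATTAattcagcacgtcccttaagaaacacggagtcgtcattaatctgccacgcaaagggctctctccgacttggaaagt
The CCAAT box was found in 15 of the 18 single HOX promoters and in 34.6% of 35116 promoters in the table. ACAAAG was found in 4 of 18, HOXA11, HOXB1, HOXD10 and HOXD12, and in 16.1% of all. TAATTA was found in HOXD3 and HOXD11 and in 4.84% of all, and the TATA box (TATAAA) in HOXA9 and HOXD13 and in 11.5% of all. The core bound by nuclear receptors such as those for retinoic acid (AGGTCA, 13.8% of all promoters) and a HOX-PBX site (TGATTTAT, 0.846%) were in 0 of 18, which says only that these letters are not in the windows. The HOX promoters held a median of 23.5 CG pairs against 14 over all promoters, from 11 in HOXA2 and 13 in HOXA11 to 25 in HOXD3 and 44 in HOXA13.

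Against parental cells, HOX genes changed in both directions in all 6 other groups, and most members stayed below the threshold. In gSOX10 #2, 2 of 36 members tested were called higher (15.9% of all genes were) and 4 lower (7.78%). In gSOX10 #4, 1 was higher (11.8%) and 3 were lower (8.91%). In CRT34 Combo 4 were higher (19.1%) and 4 lower (8.09%), and in CRT34 DMSO 4 were higher (15.7%) and 3 lower (7.35%). In CRT35 Combo 7 were higher (20.1%) and 3 lower (10.2%), and in CRT35 DMSO 4 were higher (15.7%) and 1 was lower (7.98%). The share of members called higher lay below that of all genes in all 6 comparisons and the share called lower was close to it in most, so the counts alone show nothing particular to the family. The comparisons share the parental libraries and are not independent. In the 10 pairwise comparisons 21 members were never called and 15 were called at least once, 6 in HOXA, 3 in HOXB, 2 in HOXC and 4 in HOXD. The share of all genes called at least once was not computed, so these totals are only descriptions. HOXA11 was called in 7 comparisons, HOXA13 in 6, and HOXA2, HOXB13 and HOXD3 in 5 each. HOXD3 passed the filter only through groups other than parental.

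**Figure D2:**
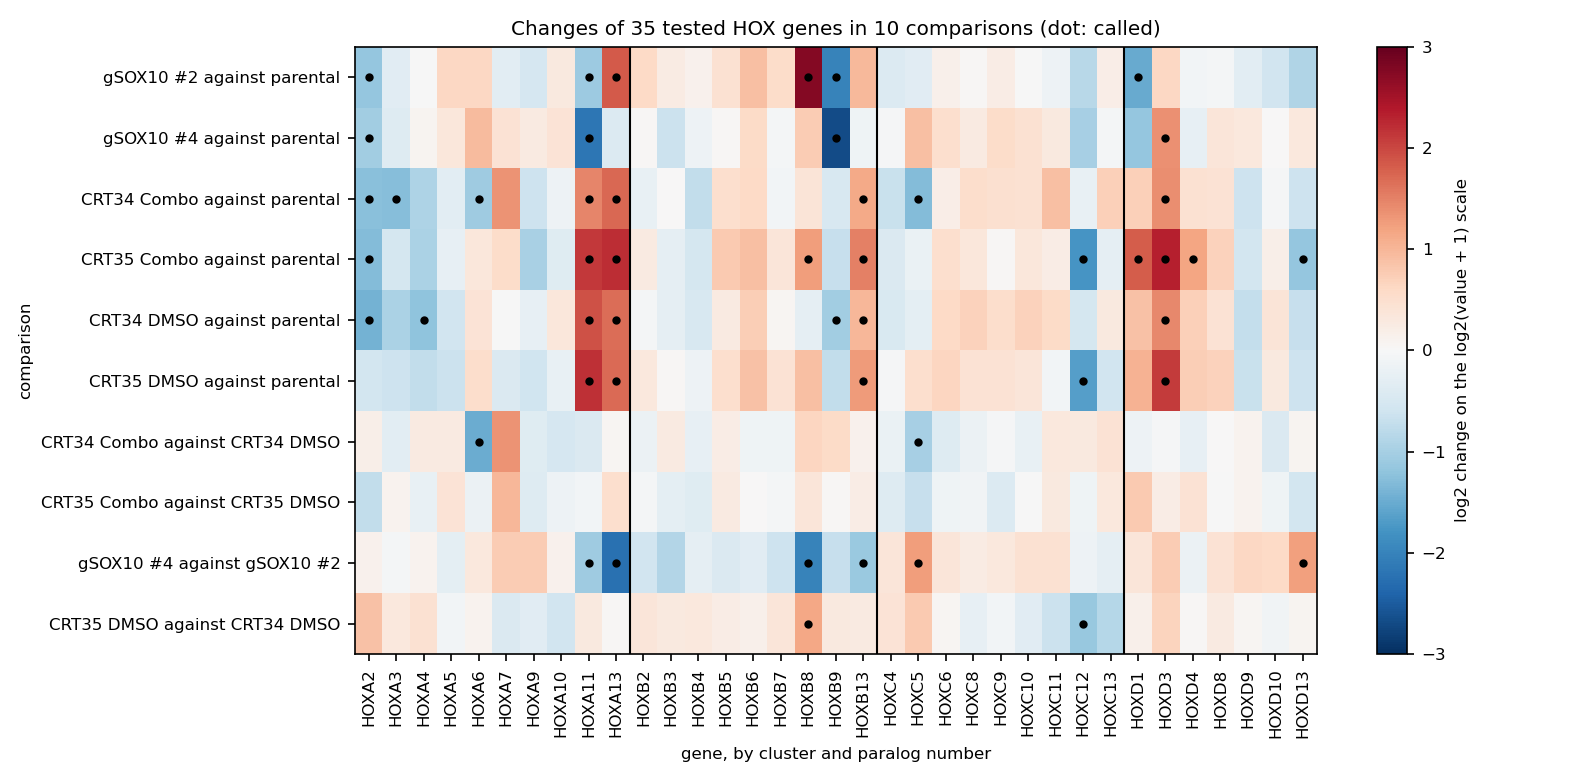
Log2 change of 35 HOX genes tested (columns, by cluster and paralog number) in 10 comparisons (rows), in red where the first group is higher and in blue where it is lower, with a dot for each call. HOXA11, HOXA13, HOXB13 and HOXD3 are red and called in all 4 CRT groups against parental. HOXA2, HOXA11 and HOXB9 are blue and called in both knockout clones.

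HOXA11 (GRCh38 chr7:27181157-27185232, minus strand), which shapes the forearm, the kidney and the uterus, was lower than parental in both knockout clones and higher in all 4 CRT groups. It was at 71.02, 93.8 and 73.5 in the parental libraries, at 31.5, 42.9 and 35.2 in gSOX10 #2 and at 25.9, 15.2 and 12.2 in gSOX10 #4. In the tolerant lines it was at 181, 239 and 248 in CRT34 Combo, 357, 276 and 272 in CRT34 DMSO, 330.3, 336 and 372 in CRT35 Combo and 383, 354 and 358 in CRT35 DMSO. All knockout libraries lay below all parental libraries, and all CRT libraries lay above them. The gene fell in gSOX10 #2 (log2 change -1.10, SE 0.25, adjusted p = 0.00175) and in gSOX10 #4 (log2 change -2.16, SE 0.25, adjusted p = 2.51e-06), and the first of these calls was lost without parental replicate 2 (log2 change -0.98, adjusted p = 0.0119), with totals made equal or with a pseudocount of 10. It rose in CRT34 Combo (log2 change 1.47, SE 0.25, adjusted p = 0.000116), and by 1.91 in CRT34 DMSO, 2.12 in CRT35 Combo and 2.20 in CRT35 DMSO on the log2 scale, calls that every alternative kept. HOXA11-AS, a noncoding RNA that shares 27.2% of the exon bases of HOXA11 on the opposite strand, was at 23.3 to 25.6 in parental libraries and was likewise called higher in all 4 CRT groups, by 1.48 to 2.29. In the clones it was at 29.9 to 48.7 and 21.99 to 27.5 and was not called.

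HOXA13 (chr7:27193503-27200091, minus strand), at the posterior end of its cluster and needed for digits and for the genital and urinary tract, differed between the knockout clones. Its values were 54.5, 89.8 and 56.97 in parental libraries, 262, 238 and 207 in gSOX10 #2 and 66.4, 40.5 and 42.7 in gSOX10 #4. In the CRT lines they were 176, 239 and 252 in CRT34 Combo, 173, 305 and 180.4 in CRT34 DMSO, 438, 291 and 230.4 in CRT35 Combo and 203, 201 and 246 in CRT35 DMSO. The gSOX10 #2 and CRT libraries all lay above the parental ones, while gSOX10 #4 overlapped them. HOXA13 rose in gSOX10 #2 (log2 change 1.83, SE 0.29, adjusted p = 7.05e-05) and by 1.68 to 2.22 on the log2 scale in the CRT groups (adjusted p = 0.000157 and 4.84e-06), and every alternative kept these 5 calls. HOTTIP, a noncoding RNA beside HOXA13, was low, at 0 to 2.57 in parental libraries, 8.74 to 22.6 in gSOX10 #2, 0 to 3.33 in gSOX10 #4 and 3.67 to 43.5 in CRT libraries, and was called higher in gSOX10 #2 and all CRT groups. It passed the filter only through gSOX10 #2 and CRT libraries.

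HOXB13 (chr17:48724763-48728750, minus strand), at the posterior end of its cluster and known for its part in the prostate, rose in all 4 CRT groups. It was at 399.96, 512 and 542 in parental libraries, 959, 993 and 891 in gSOX10 #2 and 622, 405 and 335 in gSOX10 #4. Values in the CRT lines were 1451, 863 and 962 in CRT34 Combo, 825, 1012 and 1082 in CRT34 DMSO, 1583, 1227 and 1306 in CRT35 Combo and 1184, 1179 and 1155 in CRT35 DMSO. Every CRT and gSOX10 #2 library exceeded the parental ones, and gSOX10 #4 overlapped them. The change was largest in CRT35 Combo (log2 change 1.503, SE 0.21, adjusted p = 1.21e-05) and smallest in CRT34 DMSO (log2 change 1.01, SE 0.21, adjusted p = 0.00103), where the call was lost without parental replicate 1, CRT34 DMSO replicate 2 or CRT34 DMSO replicate 3 (log2 changes from 0.87 to 0.97, adjusted p from 0.00529 to 0.00874), with a pseudocount of 10 or with quantile normalization. In CRT34 Combo (log2 change 1.15, SE 0.21, adjusted p = 0.000279) it was lost without CRT34 Combo replicate 1 (log2 change 0.92, adjusted p = 0.00247) or with quantile normalization. In gSOX10 #2 its change of 0.98 was just short of the fold required.

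HOXB9, known from the thoracic skeleton and the mammary gland, was lower in both clones. It stood at 429.7, 573 and 635 in parental libraries, at 113, 159.9 and 134 in gSOX10 #2 and at 82.4, 87.7 and 77.5 in gSOX10 #4. In the CRT groups the values were 355, 442 and 369 in CRT34 Combo, 365, 178 and 274 in CRT34 DMSO, 255, 316 and 456 in CRT35 Combo and 289, 327 and 353 in CRT35 DMSO. Both clones lay wholly below the parental and the CRT libraries. HOXB9 fell in gSOX10 #2 (log2 change -1.99, SE 0.26, adjusted p = 6.58e-06) and in gSOX10 #4 (log2 change -2.69, SE 0.26, adjusted p = 1.98e-07), and every alternative kept both calls. In CRT34 DMSO it was called as well (log2 change -1.04, SE 0.26, adjusted p = 0.00313), and that call was lost without parental replicate 2, parental replicate 3 or CRT34 DMSO replicate 2 (log2 changes from -0.996 to -0.77, adjusted p from 0.0143 to 0.0269).

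**Figure D3:**
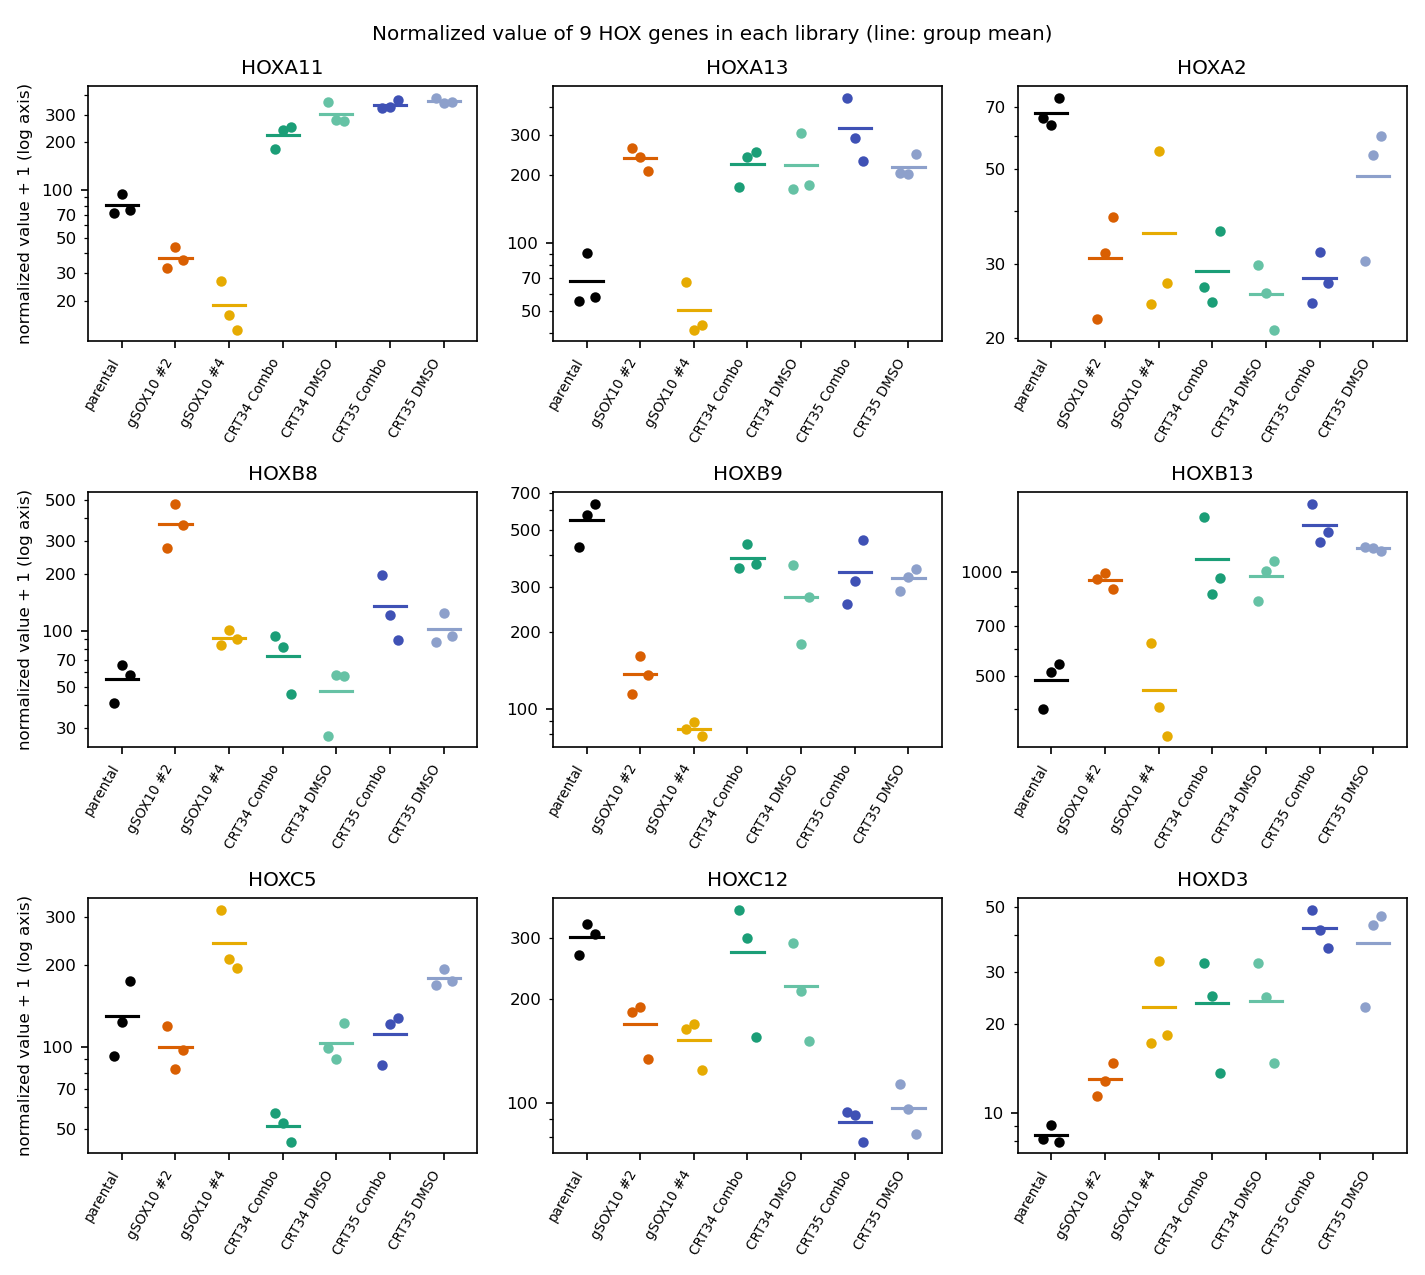
Normalized value plus 1 (log axis) of 9 HOX genes in each of the 21 libraries, with points for libraries and a line for the group mean. HOXA11 and HOXB9 are lowest in the knockout clones, HOXB8 is highest in gSOX10 #2 at 275 to 478, and HOXC12 is lowest in the CRT35 groups at 76.4 to 113.

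Of the posterior HOXC genes, HOXC12 was the one called against parental. It was at 266, 327 and 307 in parental libraries, 182, 189 and 133 in gSOX10 #2 and 163, 168 and 124 in gSOX10 #4. It was at 361, 299 and 155 in CRT34 Combo, 289, 209.5 and 150.03 in CRT34 DMSO, 93.2, 91.6 and 76.4 in CRT35 Combo and 113, 94.9 and 80.4 in CRT35 DMSO. CRT35 lay wholly below parental in both treatments, and CRT34 overlapped it in both. HOXC12 fell in CRT35 Combo (log2 change -1.77, SE 0.29, adjusted p = 5.98e-05) and in CRT35 DMSO (log2 change -1.64, SE 0.29, adjusted p = 0.000173), and its changes of -0.84 and -0.99 in the clones were below the fold required.

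Its neighbor HOXC13, a regulator of hair and nail keratin genes, was not called in any of the 10 pairwise comparisons. It was at 636, 632 and 612 in parental libraries, 654, 745 and 782 in gSOX10 #2, 707, 545 and 563 in gSOX10 #4 and 1245, 977 and 891 in CRT34 Combo. The remaining values were 517, 1041 and 821 in CRT34 DMSO, 726, 510.1 and 385 in CRT35 Combo and 508, 424 and 351 in CRT35 DMSO, so CRT34 Combo lay wholly above parental and CRT35 DMSO wholly below it. HOXC11, a posterior gene of the hindlimb level, was at 267, 234 and 251 in parental libraries, 238, 234 and 203 in gSOX10 #2, 319.9, 335 and 269 in gSOX10 #4 and 565, 499.6 and 359.9 in CRT34 Combo. It was at 433, 369 and 331 in CRT34 DMSO, 284, 303 and 287 in CRT35 Combo and 280.3, 216 and 223 in CRT35 DMSO. Both CRT34 groups, gSOX10 #4 and CRT35 Combo lay above parental, with a change of 0.90 in CRT34 Combo that reached 1.08 and was called without CRT34 Combo replicate 3 and CRT35 DMSO replicate 1.

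HOXC10, which helps set lumbar motor neuron identity, was at 1721, 1848 and 1910.4 in parental libraries, 1486, 2124 and 1910.2 in gSOX10 #2, 2777, 2302 and 2411 in gSOX10 #4 and 2510.2, 2727 and 2344 in CRT34 Combo. It was at 2848, 3039 and 2893 in CRT34 DMSO, 2602, 2365 and 2006 in CRT35 Combo and 2153, 2411 and 2436 in CRT35 DMSO, above all parental libraries in every group but gSOX10 #2. HOXA10, known from the uterus and from leukemia, was at 1246, 1155 and 1286 in parental libraries, 1568, 1528 and 1415 in gSOX10 #2, 1478, 1679.6 and 1760.4 in gSOX10 #4 and 1229, 1199 and 899 in CRT34 Combo. Its values were 1894, 1392 and 1439.5 in CRT34 DMSO, 924, 985 and 942 in CRT35 Combo and 1095, 1016 and 1035 in CRT35 DMSO. Its 6 changes against parental ran from -0.37 in CRT35 Combo to 0.41 in gSOX10 #4, and neither HOXC10 nor HOXA10 was called in any comparison.

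HOXD13, the digit gene at the posterior end of HOXD, was the highest HOXD member per kb in parental cells and differed between the clones. It was at 685, 769 and 748 in parental libraries, 438, 385 and 349 in gSOX10 #2 and 1018, 908 and 815 in gSOX10 #4. In the CRT lines it was at 409.7, 667 and 406 in CRT34 Combo, 829.8, 295 and 388 in CRT34 DMSO, 176, 421 and 463 in CRT35 Combo and 496, 459 and 483 in CRT35 DMSO. The gSOX10 #2 libraries lay below parental and those of gSOX10 #4 above it, and CRT34 DMSO spread across both. It fell in CRT35 Combo (log2 change -1.17, SE 0.34, adjusted p = 0.00715), a call that was lost without CRT35 Combo replicate 1 (log2 change -0.73, adjusted p = 0.0652).

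Central genes were led by HOXB8, best known from myeloid cells and microglia. It was at 39.8, 64.4 and 57.1 in parental libraries, 275, 478 and 366 in gSOX10 #2 and 82.9, 99.2 and 89.2 in gSOX10 #4. Values in the CRT lines were 92.02, 80.4 and 44.8 in CRT34 Combo, 26.3, 56.6 and 56.2 in CRT34 DMSO, 196, 120.3 and 88.2 in CRT35 Combo and 85.9, 123 and 92.4 in CRT35 DMSO. All gSOX10 #2 libraries exceeded all other libraries, and CRT34 overlapped parental. HOXB8 rose in gSOX10 #2 (log2 change 2.76, SE 0.36, adjusted p = 8.30e-06), the largest HOX change against parental, and in CRT35 Combo (log2 change 1.26, SE 0.36, adjusted p = 0.00696), where it was lost without CRT35 Combo replicate 1 (log2 change 0.95, adjusted p = 0.0538) or with quantile normalization. Of 4 leukocyte markers tested, 1 was called higher in gSOX10 #2 (CD68) and 3 in CRT35 Combo (CD68, PTPRC and ITGAM). CD68 was also called higher in gSOX10 #4, both CRT34 groups and CRT35 DMSO, where HOXB8 was not called against parental. The summed leukocyte markers were 1161 to 1299.95 in parental, 6188 to 8191 in gSOX10 #2 and 7684 to 16898 in CRT35 Combo. CD3E was at 0 in all 3 groups, and the part of these markers in the HOXB8 values was not tested.

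HOXB7 and HOXB6, neighbors of HOXB8, did not pass the fold required in any comparison. HOXB7 was at 999, 1060.4 and 959 in parental libraries, 1609.7, 1576 and 1264 in gSOX10 #2, 1337, 851 and 788 in gSOX10 #4 and 1156, 958 and 775 in CRT34 Combo. It was at 963, 1179 and 1007 in CRT34 DMSO, 1319, 1347 and 1231 in CRT35 Combo and 1249.5, 1474 and 1336 in CRT35 DMSO, so gSOX10 #2 and both CRT35 groups lay above parental. HOXB6 was at 207, 190.5 and 255 in parental libraries, and all 18 other libraries lay above them. Its groups read 314, 444 and 475 in gSOX10 #2, 309.6, 271 and 390.1 in gSOX10 #4, 406, 326 and 261 in CRT34 Combo and 402, 329 and 350.1 in CRT34 DMSO. CRT35 followed with 489, 399.8 and 338 in Combo and 387, 419 and 389.6 in DMSO, and the 6 changes against parental ran from 0.57 to 0.90.

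HOXC5 and HOXA6, central genes of the lower neck and thoracic level, were both lowest in CRT34 Combo. HOXC5 was at 91.3, 122 and 173 in parental libraries, 118, 81.6 and 96.4 in gSOX10 #2 and 317, 209 and 193 in gSOX10 #4. It was at 55.9, 51.3 and 43.7 in CRT34 Combo, 97.6, 88.8 and 121 in CRT34 DMSO, 84.8, 119.96 and 127 in CRT35 Combo and 167, 191 and 173 in CRT35 DMSO. CRT34 Combo lay below every other library, and its fall against parental (log2 change -1.30, SE 0.27, adjusted p = 0.000702) was kept by every alternative. HOXC5 shares 67.3% of its exon bases with HOXC4 and other genes on the same strand, so its value is uncertain.

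HOXA6 was at 32.5, 33.5 and 49.6 in parental libraries, 58.8, 52.6 and 66.4 in gSOX10 #2 and 56.6, 71.4 and 97.9 in gSOX10 #4. In the CRT lines it was at 28.98, 15.3 and 11.9 in CRT34 Combo, 37.97, 58.6 and 58.6 in CRT34 DMSO, 54.3, 47.7 and 42.4 in CRT35 Combo and 40.7, 67.96 and 58.9 in CRT35 DMSO. CRT34 Combo was below parental (log2 change -1.07, SE 0.34, adjusted p = 0.0147), and both clones were above parental without a call. The call in CRT34 Combo ended in 8 of 13 alternatives, among them without parental replicate 3, CRT34 Combo replicate 2 or CRT34 Combo replicate 3 (log2 changes from -0.98 to -0.81, adjusted p from 0.0515 to 0.0729). Without CRT34 Combo replicate 3 and CRT35 DMSO replicate 1 the change was -0.81 (adjusted p = 0.0663).

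HOXA2, the anterior boundary gene of the hindbrain and of the cranial neural crest, was at 65.1, 62.8 and 72.8 in parental libraries, 21.2, 30.8 and 37.7 in gSOX10 #2 and 23.1, 54.2 and 26.02 in gSOX10 #4. In the CRT lines it was at 25.4, 23.3 and 34.8 in CRT34 Combo, 28.8, 24.5 and 19.96 in CRT34 DMSO, 23.2, 30.9 and 26.01 in CRT35 Combo and 29.4, 53.2 and 58.9 in CRT35 DMSO. All 18 other libraries lay below the 3 parental ones. HOXA2 fell in CRT34 Combo (log2 change -1.25, SE 0.36, adjusted p = 0.00774), in CRT34 DMSO by 1.43 and in CRT35 Combo by 1.30 on the log2 scale, which every alternative kept. It also fell in gSOX10 #2 (log2 change -1.17, SE 0.36, adjusted p = 0.0128), which was lost without gSOX10 #2 replicate 1 (log2 change -0.95, adjusted p = 0.0605) and with a pseudocount of 10, and in gSOX10 #4 (log2 change -1.04, SE 0.36, adjusted p = 0.0285). The last call ended in 10 of 12 alternatives, among them without parental replicate 1, parental replicate 2, parental replicate 3, gSOX10 #4 replicate 1 or gSOX10 #4 replicate 3 (log2 changes from -1.08 to -0.81, adjusted p from 0.0544 to 0.11). In CRT35 DMSO its change was -0.55, without a call. HOXA3 fell in CRT34 Combo (log2 change -1.27, SE 0.26, adjusted p = 0.000646) and HOXA4 in CRT34 DMSO (log2 change -1.20, SE 0.24, adjusted p = 0.000658), and between these groups neither was called.

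HOXD3, a gene of the cervical vertebrae, was at 7.11, 8.11 and 6.97 in parental libraries, 10.4, 11.8 and 13.7 in gSOX10 #2 and 16.2, 31.8 and 17.4 in gSOX10 #4. In the CRT lines it was at 31.3, 23.8 and 12.6 in CRT34 Combo, 31.2, 23.7 and 13.7 in CRT34 DMSO, 47.9, 40.8 and 35.1 in CRT35 Combo and 21.8, 42.5 and 45.7 in CRT35 DMSO. Every other library exceeded the parental ones, and CRT35 Combo was highest as a group. All parental values lay below the 10 that the filter asks for. HOXD3 was thus tested only because of groups where it was higher, which favors calls upward against parental. It rose in gSOX10 #4 (log2 change 1.38, SE 0.41, adjusted p = 0.0117), where the call was lost without gSOX10 #4 replicate 2 (log2 change 1.09, adjusted p = 0.0657) and with a pseudocount of 10. It rose in CRT35 Combo (log2 change 2.32, SE 0.41, adjusted p = 0.000106) and CRT35 DMSO (log2 change 2.10, SE 0.41, adjusted p = 0.000377) under every alternative, and by 1.41 in CRT34 Combo and 1.44 in CRT34 DMSO, where quantile normalization and a pseudocount of 10 each ended both calls.

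HOXD1, at the anterior end of HOXD, was at 10.6, 12.8 and 10.1 in parental libraries, 7.89, 3.47 and 0.877 in gSOX10 #2 and 3.01, 2.46 and 10.7 in gSOX10 #4. It was at 13.98, 18.7 and 25.9 in CRT34 Combo, 24.4, 13.2 and 29.4 in CRT34 DMSO, 37.8, 39.05 and 48.8 in CRT35 Combo and 32.1, 15.04 and 27.9 in CRT35 DMSO. All CRT libraries lay above parental and gSOX10 #2 lay below it. HOXD1 rose in CRT35 Combo (log2 change 1.82, SE 0.54, adjusted p = 0.00886) and fell in gSOX10 #2 (log2 change -1.52, SE 0.54, adjusted p = 0.0289). The fall rests on low values and ended in 8 of 11 alternatives, among them without parental replicate 1, parental replicate 2, parental replicate 3, gSOX10 #2 replicate 2 or gSOX10 #2 replicate 3 (log2 changes from -1.59 to -0.94, adjusted p from 0.0527 to 0.182). HOXD4 was at 8.49, 10.2 and 8.20 in parental libraries, 7.89, 9.51 and 7.86 in gSOX10 #2, 6.99, 9.04 and 6.13 in gSOX10 #4 and 8.74, 15.7 and 14.9 in CRT34 Combo. It was at 10.99, 13.2 and 23.8 in CRT34 DMSO, 26.04, 16.1 and 23.9 in CRT35 Combo and 15.99, 13.1 and 18.1 in CRT35 DMSO, and rose in CRT35 Combo (log2 change 1.19, SE 0.36, adjusted p = 0.0106), whose libraries lay above all parental ones. Quantile normalization ended the calls of HOXD1 and HOXD4 in CRT35 Combo, and a pseudocount of 10 that of HOXD4. HOXD4, at 8.20 to 10.2 in parental libraries, passed the filter through its CRT libraries, which favors calls upward against parental. HAGLR, a noncoding RNA on the opposite strand at HOXD1, 60.1% of whose exon bases are shared with genes on that strand, was at 382 to 536 in parental libraries, 136 to 178 in gSOX10 #2, 108 to 143 in gSOX10 #4, 1025 to 1242 in CRT35 Combo and 1059 to 1497 in CRT35 DMSO. It fell in both clones (-1.53 and -1.89) and rose in CRT35 Combo and CRT35 DMSO (1.30 and 1.44).

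Few HOX genes differed between libraries with and without the inhibitors. Between CRT34 Combo and CRT34 DMSO, 0 members were called higher (2.84% of all genes were) and 2 lower (2.26%), HOXA6 (log2 change -1.49, SE 0.34, adjusted p = 0.0113) and HOXC5 (log2 change -1.01, SE 0.27, adjusted p = 0.0272). Without CRT34 Combo replicate 3 and CRT35 DMSO replicate 1, HOXA6 was at -1.23 (adjusted p = 0.0297) and HOXC5 at -0.91 (adjusted p = 0.0659), so that 1 call was left, and a fit of only the CRT34 groups and one with a replicate block each left 0. The HOXA6 call was lost without CRT34 Combo replicate 2 (log2 change -1.40, adjusted p = 0.0537), and the HOXC5 call without CRT34 Combo replicate 1, CRT34 Combo replicate 2, CRT34 Combo replicate 3 or CRT34 DMSO replicate 3 (log2 changes from -1.08 to -0.88, adjusted p from 0.0502 to 0.108). Between CRT35 Combo and CRT35 DMSO, limma called 0 members higher (0.487%) and 0 lower (0.648%), and 2 had an unadjusted p under 0.05, HOXB4 and HOXC5. The drug effect in CRT35 differed from that in CRT34 for 0 members (0.0104% of all genes in either direction), with 1 member, HOXA6, at an unadjusted p under 0.05 (difference 1.30, adjusted p = 0.55). Whether the drug effects on HOXA6 and HOXC5 are particular to CRT34 is therefore not shown.

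The clones, both with SOX10 disrupted, differed from each other in 6 HOX genes. In gSOX10 #4 against gSOX10 #2, 2 members were higher (2.64% of all genes) and 4 lower (7.06%). The lower ones were HOXA13 (log2 change -2.25, SE 0.29, adjusted p = 2.81e-05), HOXB8 (log2 change -2.00, SE 0.36, adjusted p = 0.000647), HOXB13 (log2 change -1.11, SE 0.21, adjusted p = 0.00112) and HOXA11 (log2 change -1.06, SE 0.25, adjusted p = 0.00551). The higher ones were HOXC5 (log2 change 1.25, SE 0.27, adjusted p = 0.00268) and HOXD13 (log2 change 1.22, SE 0.34, adjusted p = 0.0139). All 9 HOXB members tested had negative log2 changes, from -2.00 to -0.27, of which 2 were called. Their median was -0.61, beside -0.04 over all genes tested, and the share of all genes with a negative change was not counted. The HOXA11 call was lost without gSOX10 #2 replicate 2, gSOX10 #4 replicate 2 or gSOX10 #4 replicate 3 (log2 changes from -0.99 to -0.84, adjusted p from 0.0225 to 0.03). Quantile normalization also ended the HOXA11 and HOXB13 calls, and a pseudocount of 10 that of HOXA11. The HOXB13 call was lost without gSOX10 #4 replicate 3 (log2 change -0.91, adjusted p = 0.00774) and the HOXD13 call without gSOX10 #2 replicate 3 (log2 change 1.15, adjusted p = 0.0529). With 1 clone per guide, the guide and the clone cannot be told apart.

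Between the tolerant lines on DMSO, 1 member was higher in CRT35 (3.69% of all genes), HOXB8 (log2 change 1.16, SE 0.36, adjusted p = 0.036), and 1 was lower (4.42%), HOXC12 (log2 change -1.13, SE 0.29, adjusted p = 0.0133). All 9 HOXB members tested had positive log2 changes here, from 0.15 to 1.16, with a median of 0.30 beside 0 over all genes tested. The share of all genes with a positive change was not counted. The HOXB8 call was lost without CRT34 DMSO replicate 1, CRT35 DMSO replicate 1, CRT35 DMSO replicate 2 or CRT35 DMSO replicate 3 (log2 changes from 0.80 to 1.26, adjusted p from 0.0527 to 0.157), and the HOXC12 call without CRT34 DMSO replicate 1 or CRT35 DMSO replicate 3 (log2 changes from -1.01 to -0.89, adjusted p from 0.063 to 0.0643). Without CRT35 DMSO replicate 1 and CRT34 Combo replicate 3, HOXB8 was at 1.26 (adjusted p = 0.0349), HOXC12 at -1.25 (adjusted p = 0.00518), and HOXA2 was also called, at 1.18.

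A comparison of both tolerant lines on DMSO with both knockout clones, added after the data had been seen, set the drug-free groups with low SOX10 against each other. Its SE and p come from the spread of libraries within groups and do not measure the spread between lines or between clones. Of 36 members, 3 were higher in the CRT lines (10.4% of all genes) and 3 lower (8.36%). HOXA11 differed most (log2 change 3.68, SE 0.18, adjusted p = 5.56e-12), followed by HOXD1 (log2 change 2.29, SE 0.38, adjusted p = 8.24e-05) and HOXB9 (log2 change 1.45, SE 0.18, adjusted p = 2.91e-06). HOXB8 (log2 change -1.44, SE 0.26, adjusted p = 0.000157), HOXA5 (log2 change -1.09, SE 0.25, adjusted p = 0.00163) and HOXA4 (log2 change -1.003, SE 0.17, adjusted p = 0.000112) were lower in the CRT lines. For HOXB8 the clones were not alike: gSOX10 #2 was at 275 to 478, while gSOX10 #4 (82.9 to 99.2) overlapped CRT35 DMSO (85.9 to 123). HOXA4 in CRT35 DMSO (199.8 to 300.1) overlapped gSOX10 #2 (277 to 532). The HOXA4 call was lost without gSOX10 #2 replicate 2, gSOX10 #2 replicate 3, gSOX10 #4 replicate 1, gSOX10 #4 replicate 2, CRT34 DMSO replicate 2, CRT35 DMSO replicate 1 or CRT35 DMSO replicate 3 (log2 changes from -0.999 to -0.90, adjusted p from 0.000321 to 0.000494), and the HOXA5 call without gSOX10 #2 replicate 3 (log2 change -0.99, adjusted p = 0.00622). Without CRT35 DMSO replicate 1 and CRT34 Combo replicate 3, HOXA4 was at -0.94 and no longer called, and HOXA13, at 0.99 with all libraries, was called at 1.01. HOXA13 in gSOX10 #2 (207 to 262) overlapped the CRT lines on DMSO (173 to 305), and gSOX10 #4 (40.5 to 66.4) lay below them. All 8 fibroblast markers were called higher in the CRT lines in this comparison too, and their part in these differences was not tested.

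Summed per kb over their members, HOXB and HOXC gave similar levels in parental cells, HOXA less and HOXD the least. The HOXA sum was 1038 ± 121 in parental cells, 1312 ± 188 in gSOX10 #2, 1264 ± 123 in gSOX10 #4 and between 944 and 1056 in the means of the CRT groups. HOXB reached 2804 ± 197 in gSOX10 #2 against 2052 ± 162 in parental cells and 1843 ± 366 in gSOX10 #4, and all gSOX10 #2 libraries lay above all libraries of both. HOXC was 2003 ± 124 in parental cells and highest in CRT34 DMSO, at 2803 ± 185. HOXD was lowest of the clusters in every group, from 381 ± 45.5 in gSOX10 #2 to 699 ± 89.1 in gSOX10 #4, around 566 ± 51.4 in parental cells. The sum over all 39 members ran from 5659 ± 445 in parental cells to 6491 ± 494 in gSOX10 #2. As a share of that sum, HOXB took 36.3% ± 0.21 in parental cells, 43.2% ± 1.15 in gSOX10 #2 and 28.98% ± 2.80 in gSOX10 #4, and HOXC took 35.4% ± 0.925, 30.7% ± 0.34 and 39.7% ± 0.916 in the same order. The paralogs numbered 9 to 13 took 45.5% ± 0.768 in parental cells, 38.5% ± 1.25 in gSOX10 #2, 45.8% ± 0.353 in gSOX10 #4, 53.2% ± 0.464 in CRT34 Combo and 51.9% ± 0.94 in CRT34 DMSO. In CRT35 they took 45.1% ± 0.257 with the inhibitors and 43.4% ± 0.628 without. The CRT34 libraries, at 51.2% to 53.7%, all lay above the other 15. These sums are descriptions and were not tested.

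**Figure D4:**
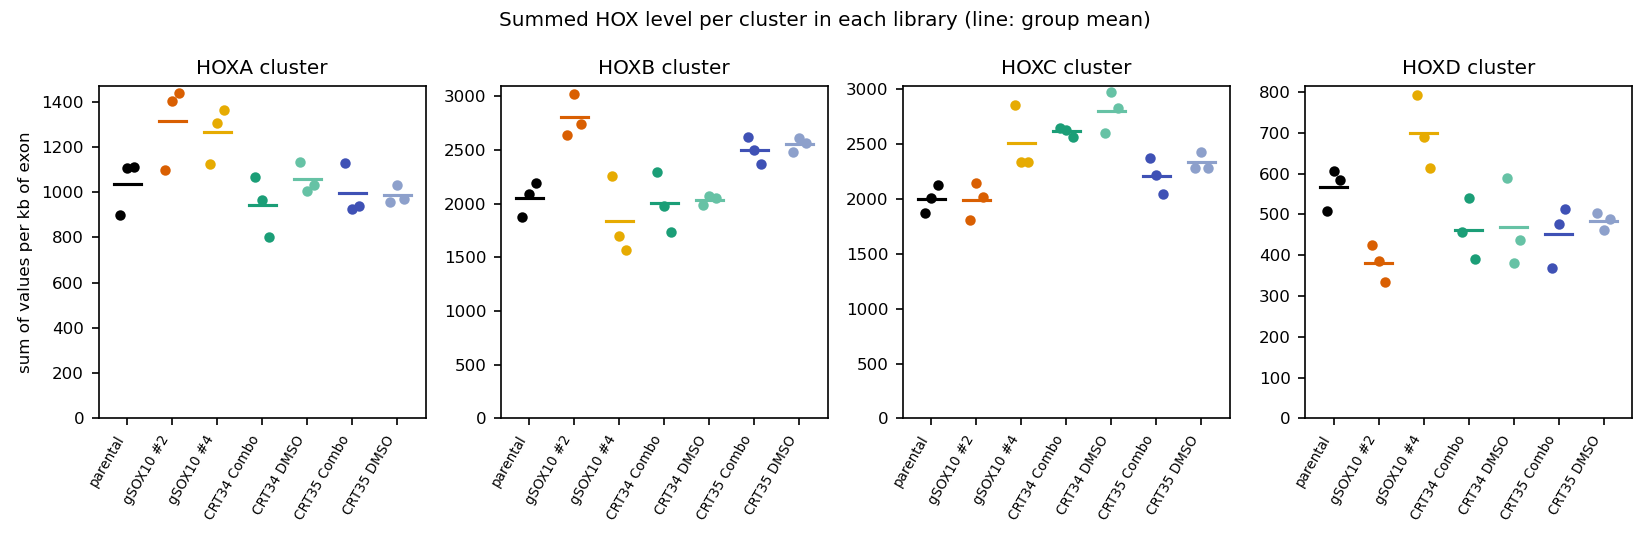
Sum of the values per kb of exon over the members of each cluster in each library (points) with the group mean (line), from 0 on a linear axis. The HOXB sum is highest in gSOX10 #2, at 2645 to 3024, the mean HOXC sum is highest in CRT34 DMSO, and the HOXD sum is lowest in gSOX10 #2, at 334 to 424.

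Of 9 TALE cofactors, partners of HOX proteins on DNA, 2 to 4 were called higher and 1 to 2 lower in each group against parental (11.8% to 20.1% of all genes were higher and 7.35% to 10.2% lower in these comparisons). MEIS3 rose in all 6 comparisons, by 1.71 to 2.79, and MEIS1 rose in gSOX10 #2 and all CRT groups, by 1.503 to 2.73. PKNOX2 was at 253, 339 and 229.6 in parental libraries and at 3.15 to 60.1 in all others, and fell in all 6.

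Among 28 Polycomb genes, which maintain silent HOX regions, 2 to 4 were called lower in each group against parental (7.35% to 10.2% of all genes were) and at most 1 higher (11.8% to 20.1%), with median log2 changes of -0.59 to -0.18 beside 0 to 0.05 over all genes tested. CBX2, a chromobox subunit of the first Polycomb complex, fell from 2252, 2064 and 2306 in parental libraries to 596, 425 and 532 in gSOX10 #2 and 431, 326 and 258 in gSOX10 #4. It was called in the other groups except CRT34 DMSO, where the change was -0.87. EZH2, the H3K27 methyltransferase, fell in all 6 groups, with log2 changes from -1.61 to -1.10, and SUZ12, its partner, in gSOX10 #4 (-1.38). Among 17 Trithorax genes and H3K27 demethylases, 0 were called higher in any of these comparisons (11.8% to 20.1% of all genes were) and at most 2 lower (7.35% to 10.2%). The lower ones were DOT1L in gSOX10 #2, CRT34 Combo and CRT35 Combo and KDM6B in CRT35 Combo. This list too had negative median log2 changes in all 6 comparisons, from -0.42 to -0.27.

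In the retinoic acid pathway, whose signal induces anterior HOX genes in embryos, 13 of 18 genes were tested and 2 to 5 were called higher and 1 to 3 lower in each group against parental, beside 11.8% to 20.1% and 7.35% to 10.2% of all genes. RARB, a receptor that is itself induced by retinoic acid, was at 169.6 to 301 in parental libraries, 31.7 to 36.5 in gSOX10 #2, 1.11 to 7.79 in gSOX10 #4 and 1191 to 7351 in the CRT libraries, falling in the clones (-2.71 and -5.43) and rising in all CRT groups. CRABP2, which carries retinoic acid to its receptors, was at 51.9 to 62.9 in parental libraries and 637 to 5842 in CRT libraries, with changes of 3.73 to 6.58. RXRG, at 26.8 to 51.02 in parental libraries and listed at 0 in all libraries of both clones and of all CRT groups but CRT35 Combo, fell in all 6 comparisons. ALDH1A3, which makes retinoic acid, fell in CRT34 Combo (-1.78), CRT35 Combo (-2.75) and CRT35 DMSO (-2.59).

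Of 18 noncoding RNA genes of the clusters, 14 were tested, and 3 to 6 were called higher and 0 to 1 lower in each group against parental, beside 11.8% to 20.1% and 7.35% to 10.2% of all genes (median changes of 0.12 to 0.75). HOTAIR, transcribed from the HOXC cluster and known for its link to Polycomb, was at 20.9, 46.4 and 42.3 in parental libraries, 89.02, 106 and 107 in gSOX10 #2, 56.5, 98.2 and 103 in gSOX10 #4 and 354, 322 and 183 in CRT34 Combo. Every library of these 3 groups exceeded the parental ones, and HOTAIR rose in both clones (1.51 and 1.24), both CRT34 groups (2.96 in Combo and 2.84 in DMSO) and CRT35 Combo (1.80). In CRT35 DMSO it was at 35.1, 80.4 and 71.5, which overlapped parental. HOTAIRM1, at the anterior end of HOXA, was at 53.3 to 107 in parental libraries, 181 to 301 in gSOX10 #2 and 216 to 439.9 in gSOX10 #4, and rose in both clones (1.68 and 1.94).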

How the data were processed

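RNA from 21 A375 libraries in 7 groups of 3, mapped to groups by their titles and treatment labels, was sequenced on poly(A) libraries. The authors deposited normalized gene values (a signal that need not be whole) for 58870 genes. Per the submitters' processing notes the tools were STAR 2.6.1a, RSEM, Picard and DESeq2 on GRCh38, and the deposited signal is comparable between libraries but not scaled by gene length. Totals were 59.2 to 68.3 M per library. Whole reads were not recovered, so no count model was used. Depth is an estimate from the lowest values.

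Gene names, positions and exon lengths came from GENCODE on GRCh38 (58472 identifiers matched), and promoter sequences from RefSeq. Genes with a value of 10 or more in at least 3 libraries (19290) entered limma 3.58.1 in R 4.3.3 on log2(value + 1), fitted over all 7 groups with no covariate (14 residual degrees of freedom, prior 4.7), with Benjamini-Hochberg adjustment over all genes tested. This was tested on simulated data. A call required both a fold of 2 or more and an adjusted p up to 0.05. Values per kb used the union of exons.

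Members given library by library were, in each cluster, the highest per kb and the 4 called in the most of 10 pairwise comparisons, with ties going to the larger range of group means. HOXA3, HOXA4 and HOXA5 and some list genes (MEIS1, CALCOCO1, HOTAIRM1 and others) were named after their values were seen. Members, gene lists (TALE cofactors, Polycomb, Trithorax and H3K27 demethylases, retinoic acid pathway, other antero-posterior homeobox genes, cluster neighbours, cluster RNA genes and markers of 5 cell types) and tests were chosen with earlier results of these data known. The comparison of CRT lines with knockout clones and the fit without CRT34 Combo replicate 3 and CRT35 DMSO replicate 1 were chosen after seeing the data. Alternatives were a pseudocount of 10, no filter, equal totals, quantile normalization, only the groups compared, a replicate block, another gene length and leaving out each library. Libraries with the same replicate number deviated together (correlation over 0.1 in all 3 pairs: 0.218, 0.253 and 0.207) between CRT34 Combo and CRT35 Combo, which meet only in the difference of drug effects, and in no other groups compared. No 2 libraries held identical values. Some genes that enter the fits and counts are not reported here by name or drawn.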

Additional observations from a re-analysis of the deposited data

Results flagged for a closer look

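Results are listed here because the difference between lines was itself tested with limma and called. Between the clones, gSOX10 #4 against gSOX10 #2, the log2 change was -1.06 for HOXA11, -2.25 for HOXA13, -2.00 for HOXB8 and -1.11 for HOXB13. In the same comparison HOXC5 was at 1.25 and HOXD13 at 1.22. Between the tolerant lines on DMSO, CRT35 against CRT34, HOXB8 was at 1.16 and HOXC12 at -1.13. Between both tolerant lines on DMSO and both knockout clones, a comparison chosen after seeing the data, HOXA4 was at -1.003, HOXA5 at -1.09, HOXA11 at 3.68, HOXB8 at -1.44, HOXB9 at 1.45 and HOXD1 at 2.29. In that comparison the HOXB8 values of CRT35 DMSO overlapped those of gSOX10 #4. Single libraries were not tested as outliers, since the groups hold 3.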

How the results depend on the processing

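Of 56 HOX calls in 12 comparisons, 32 were kept by every alternative run and 24 were ended by at least 1, and no call changed direction under any of them. A pseudocount of 10 lowered the members called from 6 to 3 in gSOX10 #2 and from 4 to 2 in gSOX10 #4 against parental, and the replicate block also gave 2 in gSOX10 #4. For CRT34 Combo against CRT34 DMSO the 2 calls became 1 with a pseudocount of 10, 1 with equal totals, 1 without CRT34 Combo replicate 3 and CRT35 DMSO replicate 1, 0 with only the groups compared, 0 with the replicate block, and 0 to 1 with each library left out. For CRT35 DMSO against CRT34 DMSO the 2 calls became 0 with only the groups compared, 0 with the replicate block, and 0 to 1 with each library left out. The cause of these changes was not tested. With the longest transcript as gene length, the mean over 21 libraries was 1283 for HOXA, 2623 for HOXB and 2696 for HOXC, in place of 1086, 2256 and 2354. For the difference of drug effects, whose Combo groups deviated together by replicate number, the replicate block gave 0 members, as did the fit without it. In the other comparisons the samples share only a number, and no block could be fitted for gSOX10 #2, whose libraries are numbered differently. The median log2 change of all genes was 0.15 with equal totals in place of 0.03 in gSOX10 #2 against parental, and -0.13 with quantile normalization in place of 0.05 in CRT35 Combo against parental. Values of a few units, as for HOXD1, HOXD3 and HOTTIP, lie near what a single read is worth and limit the precision of their changes.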

Other observations

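Of 17 genes that flank the clusters 13 were tested, and 1 to 2 were called higher and 0 to 2 lower in each group against parental, beside 11.8% to 20.1% and 7.35% to 10.2% of all genes. CALCOCO1, beside HOXC, was called higher in all 6 groups, and CBX5, which encodes a heterochromatin protein, was called lower in gSOX10 #4, CRT34 Combo and CRT34 DMSO.

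Of 13 other homeobox genes of the antero-posterior axis, such as CDX and OTX genes, 4 passed the filter. Against parental, 0 were called higher in any of the 6 groups (11.8% to 20.1% of all genes were) and 0 to 2 lower (7.35% to 10.2%). The lower ones were PDX1 in gSOX10 #4, CRT35 Combo and CRT35 DMSO, MNX1 in gSOX10 #4 and OTX1 in CRT34 DMSO. GSX1 was at 0 in all 21 libraries.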
